A study of Mus musculus with 6 samples.

Results

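Acta2, Tagln, Cnn1, Cnn2, Myl9, Myh11, Tpm1, Tpm2, Cald1 and Actg2 encode the contractile apparatus that defines smooth muscle cells and myofibroblasts, the contractile form of a fibroblast. They were taken as a list by name, with every probe annotated to them on the Illumina MouseWG-6 v2 array: 10 of 19057 gene symbols and 26 of 45281 probes. RNA was measured in 2 Rnaseh2b-/- and 4 Rnaseh2b+/+ lines of murine embryonic fibroblasts (MEFs), all p53-/- and on a C57BL/6J background. The Rnaseh2b-/- lines carry the tm1d allele, which lost exon 5 in mice that express Cre broadly, and so lack a subunit of RNase H2, the enzyme that removes ribonucleotides from DNA, and the comparison asked how gene expression differs without it. Each line came from a separate whole embryo at E10.5 and was labelled a biological replicate. Lines were matched for passage and grown in 3% O2 and 5% CO2. Cells were plated at 200000 per well, and RNA was taken from the adherent cells 20 h after the medium was changed. Such lines are mixed populations from all embryonic tissues rather than clones, and the study picked both Rnaseh2b-/- lines from a larger panel because their interferon-stimulated transcripts were the more strongly elevated.

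In a smooth muscle cell or myofibroblast, actin filaments slide along myosin when the myosin light chain is phosphorylated. Tropomyosin, calponin and caldesmon bind the actin filament and set how readily myosin engages it, and transgelin bundles actin. Many of these genes are switched on together by serum response factor (SRF), which binds the CArG box, a short A- and T-rich stretch between C and G pairs, with cofactors that respond to actin assembly and to TGF-beta. Cultured fibroblasts usually carry Acta2, Tagln, Cald1 and tropomyosin transcripts, whereas Myh11 and Cnn1 mark the more differentiated smooth muscle state. Gene signal is given here as the background-corrected, quantile-normalized log2 signal, averaged over the probes of a gene. A fold change is the Rnaseh2b-/- mean minus the Rnaseh2b+/+ mean on that log2 scale.

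Of the 10 members, 9 were above background (detection P under 0.01) on at least 1 array, and Cnn1 was not. The 13 fibroblast markers tested included 12 that were above background in all 6 lines. Summed normalized signal of skeletal and cardiac muscle markers was 65501 and 2912 in Rnaseh2b-/- lines, against 1354 to 2688 in Rnaseh2b+/+ lines. Epithelial markers had 4083 and 1425, against 276 to 538. Rnaseh2b-/- replicate 1, and for epithelial markers also Rnaseh2b-/- replicate 2, thus held signal that the fibroblast label does not cover. Myh11 was above background on only 1 of 2 Rnaseh2b-/- arrays and 1 of 4 Rnaseh2b+/+ arrays. Rnaseh2b itself had log2 signals of 5.43 and 5.53 in Rnaseh2b-/- lines, against 9.81, 9.17, 9.48 and 9.50 in Rnaseh2b+/+ lines (limma, log2 fold change -4.01, SE 0.19, adjusted P = 0.00121), so that the array matched the labels. Between 15519 and 16114 probes were above background per array. Of 10160 genes tested, 52 passed an adjusted P of 0.05 (36 higher in Rnaseh2b-/- lines and 16 lower), and leaving out 1 line in turn gave 0 to 293 higher and 1 to 112 lower.

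No member passed that threshold in either direction, where 0.354% of all genes were called higher, 0.157% lower and 0.512% in either direction. Before adjustment, with a limit of 0.05 on P, 6 of the 9 members tested were lower and 1 was higher in Rnaseh2b-/- lines, against 9.13% and 7.99% of all genes. In 6 members both Rnaseh2b-/- lines lay below all 4 Rnaseh2b+/+ lines, and in 1 both lay above, against 15.1% and 12.5% of all genes. For Acta2 and Cald1, both among the 6, this held for the mean of the probes but not at each probe. The Acta2 mean includes probe ILMN_1237242, and that of Tpm2, the 1 higher member, includes probe ILMN_2787172. The detection filter kept each of these probes only through the group where it is higher. The direction of both means is thus not fully independent of the filter. The median log2 fold change was -0.36 over the 9 members and -0.02 over all genes. The count of 6 rested on single lines: it was 2 without Rnaseh2b-/- replicate 1, without Rnaseh2b+/+ replicate 3 or without Rnaseh2b+/+ replicate 4. The count of 1 was 2 without Rnaseh2b+/+ replicate 1. The smallest P an exact permutation test can give with these group sizes is 0.0667.

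**Figure D1:**
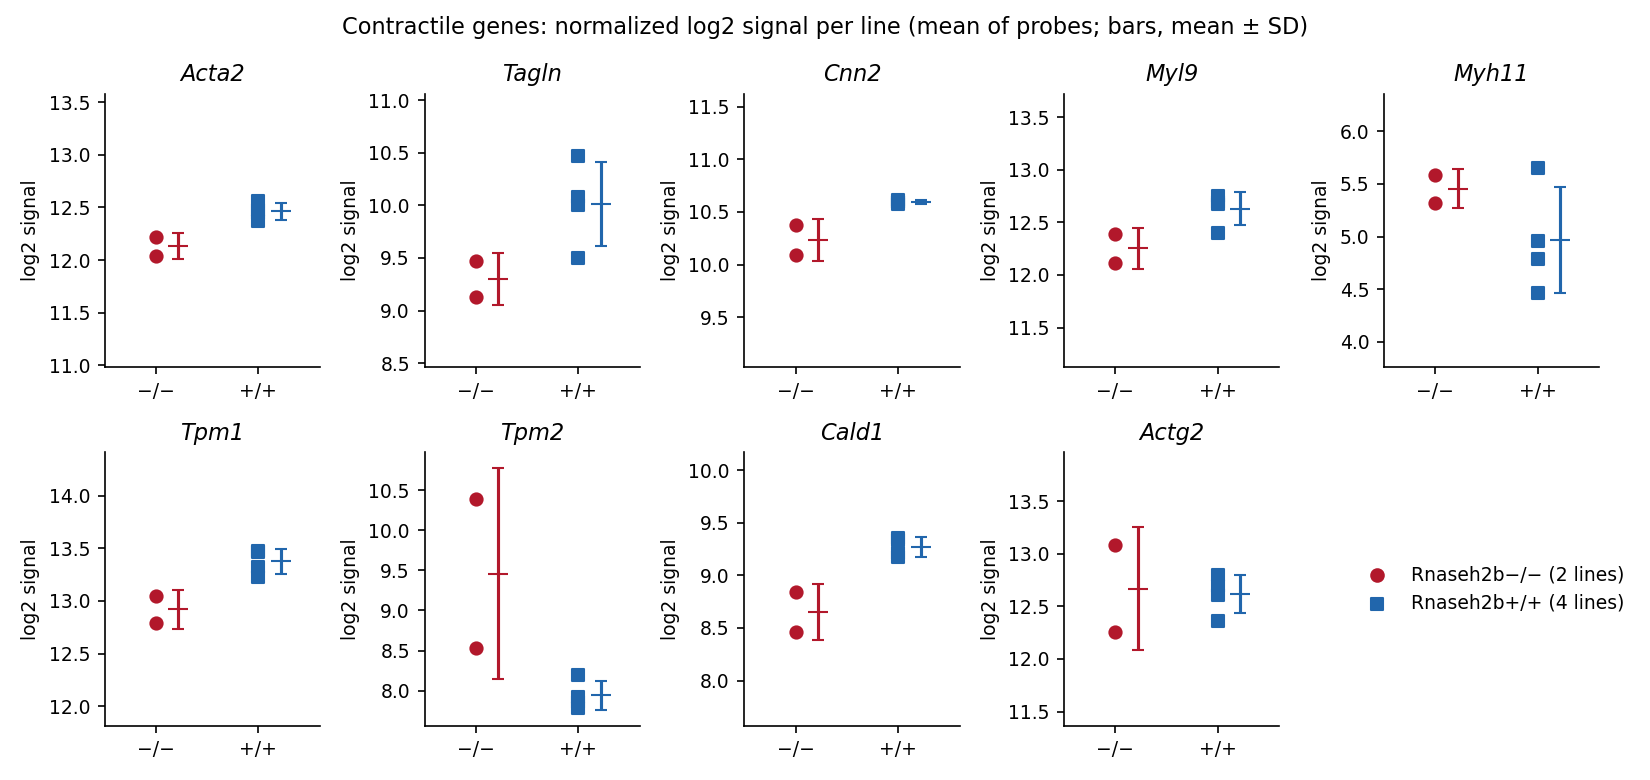
Normalized log2 signal (y axis) of the 9 contractile genes tested, 1 panel a gene, in 2 Rnaseh2b-/- lines (circles) and 4 Rnaseh2b+/+ lines (squares), with the mean and SD of each group beside the points. In Acta2, Tagln, Cnn2, Myl9, Tpm1 and Cald1 both Rnaseh2b-/- lines lie below every Rnaseh2b+/+ line, in Tpm2 both lie above and are far apart (10.39 and 8.53), and in Myh11 and Actg2 the groups overlap.

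Of the actins, Acta2 encodes alpha smooth muscle actin, the usual marker of a myofibroblast. Its signal was 12.22 and 12.04 in Rnaseh2b-/- lines, against 12.56, 12.37, 12.48 and 12.44 in Rnaseh2b+/+ lines. Both Rnaseh2b-/- lines were below the lowest Rnaseh2b+/+ line, by 0.15 or more. The log2 fold change was -0.33 (SE 0.13, limma adjusted P = 0.269). Actg2, the gamma actin of visceral smooth muscle, had 12.25 and 13.08 in Rnaseh2b-/- lines, against 12.79, 12.36, 12.61 and 12.70 in Rnaseh2b+/+ lines. The Rnaseh2b-/- lines were the lowest and the highest of the 6, with a fold change of 0.05 (SE 0.25, limma adjusted P = 0.932) that was -0.18 when arrays were scaled by their medians. It was -0.36 without Rnaseh2b-/- replicate 2 and 0.46 without Rnaseh2b-/- replicate 1.

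Among the proteins bound to actin, Cald1 (caldesmon) had the smallest P of the members. Its signal was 8.46 and 8.84 in Rnaseh2b-/- lines, against 9.17, 9.35, 9.21 and 9.34 in Rnaseh2b+/+ lines. The groups were separated by 0.33, and the log2 fold change was -0.62 (SE 0.16, unadjusted P = 0.00521, limma adjusted P = 0.133). Tagln (transgelin, an early marker of smooth muscle) had 9.13 and 9.47 in Rnaseh2b-/- lines, against 10.47, 9.50, 10.08 and 10.00 in Rnaseh2b+/+ lines. Here the gap to the nearest Rnaseh2b+/+ line was 0.03, and the fold change of -0.71 (SE 0.27, limma adjusted P = 0.245) came with an SD of 0.40 among the Rnaseh2b+/+ lines. Cnn2, the calponin that non-muscle cells also express, had 10.10 and 10.38 in Rnaseh2b-/- lines, against 10.60, 10.57, 10.60 and 10.61 in Rnaseh2b+/+ lines. In this mean of 2 probes the 4 Rnaseh2b+/+ lines were close together (SD 0.02, n = 4) and both Rnaseh2b-/- lines lay below them, with a fold change of -0.36 (SE 0.13, limma adjusted P = 0.250). At each single probe the SD of the Rnaseh2b+/+ lines was 0.18, and both Rnaseh2b-/- lines again lay below them. The calponin of smooth muscle, Cnn1, had a single probe that was not above background on any of the 6 arrays, with signals of 4.70 and 4.54 in Rnaseh2b-/- lines, against 5.10, 4.55, 4.64 and 4.47 in Rnaseh2b+/+ lines.

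The tropomyosin genes stood on opposite sides. Tpm1 had 12.79 and 13.05 in Rnaseh2b-/- lines, against 13.48, 13.32, 13.23 and 13.47 in Rnaseh2b+/+ lines. Both Rnaseh2b-/- lines were below the others by 0.18 or more (fold change -0.46, SE 0.15, limma adjusted P = 0.206). Tpm2 had 10.39 and 8.53 in Rnaseh2b-/- lines, against 8.20, 7.87, 7.92 and 7.79 in Rnaseh2b+/+ lines. Rnaseh2b-/- replicate 1 stood above every other line, Rnaseh2b-/- replicate 2 included, in this mean of 3 probes, and the fold change was 1.51 (SE 0.46, limma adjusted P = 0.183). Without Rnaseh2b-/- replicate 2 the fold change was 2.45 and passed the threshold (adjusted P = 0.00226, with the remaining Rnaseh2b-/- line assumed to vary like the Rnaseh2b+/+ lines), and without Rnaseh2b-/- replicate 1 it was 0.59 (adjusted P = 0.357).

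Of the myosin chains, Myl9 encodes the regulatory light chain of smooth muscle myosin. It had 12.12 and 12.39 in Rnaseh2b-/- lines, against 12.70, 12.40, 12.68 and 12.75 in Rnaseh2b+/+ lines. The nearest lines of the groups differed by 0.01, and the fold change was -0.38 (SE 0.16, limma adjusted P = 0.289). The smooth muscle heavy chain Myh11 had 5.58 and 5.32 in Rnaseh2b-/- lines, against 5.65, 4.96, 4.47 and 4.79 in Rnaseh2b+/+ lines. The groups overlapped close to the background (fold change 0.49, SE 0.31, limma adjusted P = 0.457), and without Rnaseh2b+/+ replicate 1 the fold change was 0.71 (adjusted P = 0.117).

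The promoters of 3 members are shown because they carry CArG boxes, or near matches, in the window around the transcription start. RefSeq windows on GRCm38.p6, which run over 300 bases (250 before the start and 50 after), were given for 7 of the 10 members. The sequence is written 5′ to 3′ on the strand of the gene, with the matches in capitals.
Myl9 (chr2:156775214-156775513, plus strand): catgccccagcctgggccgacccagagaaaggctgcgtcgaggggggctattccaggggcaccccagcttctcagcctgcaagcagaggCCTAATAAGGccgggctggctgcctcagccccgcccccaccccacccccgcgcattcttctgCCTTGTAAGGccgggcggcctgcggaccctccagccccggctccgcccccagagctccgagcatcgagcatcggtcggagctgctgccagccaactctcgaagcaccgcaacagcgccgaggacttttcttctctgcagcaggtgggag
Cnn2 (chr10:79988350-79988649, plus strand): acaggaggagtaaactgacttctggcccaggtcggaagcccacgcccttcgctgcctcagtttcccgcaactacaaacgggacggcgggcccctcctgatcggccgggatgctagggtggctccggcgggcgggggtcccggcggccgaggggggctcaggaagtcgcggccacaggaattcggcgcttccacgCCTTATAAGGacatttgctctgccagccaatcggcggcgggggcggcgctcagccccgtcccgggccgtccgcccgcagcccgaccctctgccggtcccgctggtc
Acta2 (chr19:34255324-34255623, minus strand): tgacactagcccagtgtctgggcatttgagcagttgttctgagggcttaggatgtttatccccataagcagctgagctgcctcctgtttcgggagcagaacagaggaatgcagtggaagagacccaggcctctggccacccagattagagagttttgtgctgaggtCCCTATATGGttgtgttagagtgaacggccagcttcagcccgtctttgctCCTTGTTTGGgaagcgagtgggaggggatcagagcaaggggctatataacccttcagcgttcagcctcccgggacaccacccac

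A CArG box (CC, then 6 bases of A or T, then GG, which reads the same on both strands) was found in the windows of Myl9, at 161 bases before the start, and Cnn2, at 56 bases before it. It was in 1.63% of all 32851 windows. With at most 1 base of the A and T core differing, Acta2 held 2 matches, at 84 and 34 bases before the start, and Myl9 a further one at 99 bases before it. Such looser matches were in 9.98% of all windows. These distances are counted from the start that each window assumes, which for Acta2 and Myl9 lies inside the gene coordinates given below. Both Acta2 matches also lie inside those coordinates, so the distances need not be those to the main transcription start. The letters CATTCC, searched on both strands, were in the windows of Acta2, Tpm1 and Cald1 and in 14.7% of all windows, and TATAAA was in that of Cald1 and in 13.6%. Matches of letters are given as a description only. The members lie apart in the genome (GRCm38.p6), for example Acta2 at chr19:34240336-34255585, Cald1 at chr6:34598495-34775469, Tpm2 at chr4:43513726-43523583 and Myl9 at chr2:156775408-156781657, with only Actg2 (chr6:83512909-83536251) on the chromosome of Cald1, and Tagln (chr9:45929628-45936058), Tpm1 (chr9:67022590-67049672) and Cnn1 (chr9:22099221-22109221) sharing chromosome 9.

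The 6 members below the Rnaseh2b+/+ lines did not all follow the same line. Rnaseh2b-/- replicate 1 had the lowest signal of all 6 lines in 5 of them, and Rnaseh2b-/- replicate 2 in the remaining gene, Acta2. Without Rnaseh2b-/- replicate 1 the log2 fold changes were -0.42 for Acta2, -0.54 for Tagln, -0.43 for Cald1, -0.32 for Tpm1, -0.25 for Myl9 and -0.21 for Cnn2. In bulk RNA fewer cells of a type and less RNA per cell cannot be told apart. Summed over the 13 fibroblast markers, normalized signal was 36944 and 42410 in Rnaseh2b-/- lines, against 41577 to 45974 in Rnaseh2b+/+ lines. The 1 of these markers that passed the threshold went the other way: Dcn (decorin, a matrix proteoglycan) had 11.30 and 11.82 in Rnaseh2b-/- lines, against 10.00, 9.95, 9.24 and 9.38 in Rnaseh2b+/+ lines (fold change 1.92, SE 0.28, limma adjusted P = 0.0459). It passed in 7 of 16 other settings, and of those that left out 1 line only without Rnaseh2b+/+ replicate 1 (the other 5 gave adjusted P = 0.0579 to 0.155). Fn1 (fibronectin) was also above all Rnaseh2b+/+ lines in both Rnaseh2b-/- lines (fold change 0.59, limma adjusted P = 0.311). The collagen genes Col1a1 (-0.54, adjusted P = 0.342) and Col3a1 (-0.61, adjusted P = 0.208) were below all of them in both. Of the 13 markers, 10 had a fold change below 0 and 3 above, with a median of -0.15. Whether the makeup of the lines had a part in the members' values was not tested. Tagln and Tpm1, and also Cnn1, lie on chromosome 9, where the 592 genes tested had a median log2 fold change of -0.28 and 40.0% had both Rnaseh2b-/- lines below all Rnaseh2b+/+ lines. On the chromosomes of the other members (2, 4, 6, 10, 16 and 19) the medians ran from -0.07 to 0.06. The part of chromosome 9 in the values of Tagln and Tpm1 was not tested.

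Single probes did not give the same picture for every gene. Of 26 probes, 21 were tested and 5 were not above background on any array (1 probe each of Acta2, Tagln, Cnn1, Myh11 and Tpm1). None of the 21 passed, against 0.494% of all 15805 probes tested. Before adjustment, with the same limit on P, 8 were lower and 2 higher in Rnaseh2b-/- lines (9.09% and 7.12% of all probes). Both Rnaseh2b-/- lines lay below all Rnaseh2b+/+ lines at 12 probes and above them at 3 (14.7% and 11.9% of all probes). The lower probes in both counts include Acta2 ILMN_1237242, and the higher ones include Tpm2 ILMN_2787172. Each of these was kept by the detection filter only through the group where it is higher, so its direction is not independent of the filter. The direct test of a pair of probes of a gene, on their log2 difference in each line, covered 25 pairs in 5 members. In 6 pairs the fold changes had opposite signs, against 26.7% of all 8076 pairs, and these 6 were among the 14 pairs that differed at an unadjusted P under 0.05, against 9.56% of all pairs. In 6 of the 25 pairs a probe (Acta2 ILMN_1237242 or Tpm2 ILMN_2787172) stayed at background in every line of 1 group, so that its fold change is only a bound. Of the other 19 pairs, 4 had opposite signs and 10 had an unadjusted P under 0.05. Pairs of a gene share probes, so these counts are not of independent pairs. No pair differed at an adjusted P under 0.05, where the share over all pairs was 0%.

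**Figure D2:**
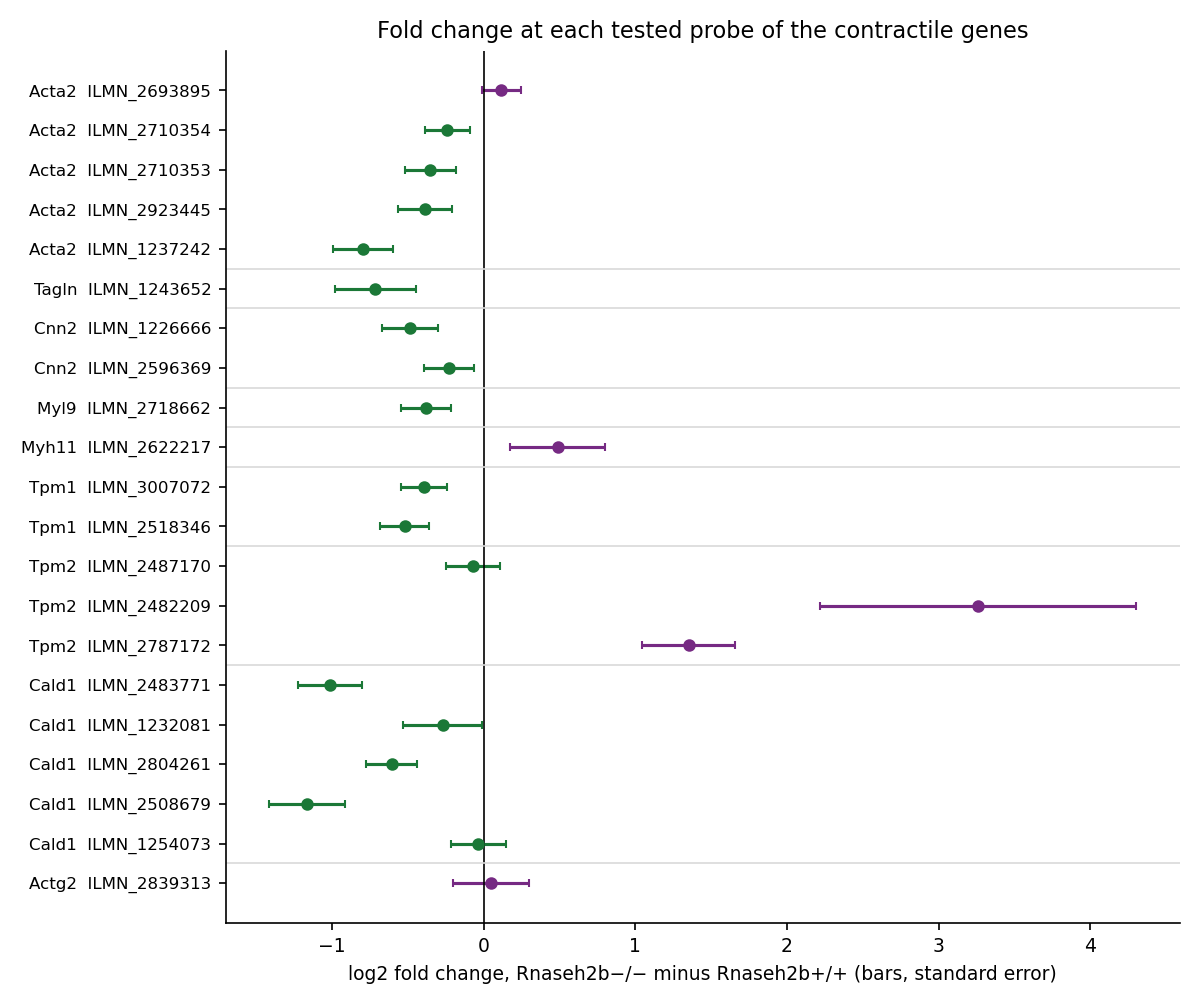
Log2 fold change (x axis, Rnaseh2b-/- minus Rnaseh2b+/+) with its standard error at each of the 21 tested probes, grouped by gene, with negative values in green and positive values in purple. The Tpm2 probes run from -0.07 to 3.26, 1 Acta2 probe is positive (0.12) beside 4 negative ones, and all 5 Cald1 probes are negative.

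Tpm2 held the widest disagreement. Its 3 probes are annotated to a single RefSeq transcript. Probe ILMN_2487170 had 12.24 and 12.29 in Rnaseh2b-/- lines, against 12.63, 12.09, 12.32 and 12.30 in Rnaseh2b+/+ lines. These groups overlapped (log2 fold change -0.07, SE 0.18, limma adjusted P = 0.877). Probe ILMN_2482209 had 12.13 and 7.55 in Rnaseh2b-/- lines, against 6.74, 6.57, 6.52 and 6.50 in Rnaseh2b+/+ lines, that is 5.55 and 0.97 above the Rnaseh2b+/+ mean. In the deposited intensities, before any normalization, this probe read 3826 and 260 in Rnaseh2b-/- lines, against 212, 217, 196 and 184 in Rnaseh2b+/+ lines. Its fold change was 3.26 (SE 1.04, limma adjusted P = 0.215). Probe ILMN_2787172 had 6.79 and 5.75 in Rnaseh2b-/- lines, against 5.23, 4.94, 4.93 and 4.57 in Rnaseh2b+/+ lines, where it was not above background on any of the 4 arrays. Its signal was at least 1.63-fold higher in Rnaseh2b-/- lines (limma adjusted P = 0.114), a bound that sets the Rnaseh2b-/- mean against the lowest signal detected on the Rnaseh2b+/+ arrays.

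The fold change at ILMN_2482209 exceeded that at ILMN_2487170 by 3.33 on the log2 scale (SE 1.02, unadjusted P = 0.0120, limma adjusted P = 0.378 over all pairs). Without Rnaseh2b-/- replicate 2 the difference between ILMN_2482209 and ILMN_2487170 was 5.65 and passed (adjusted P = 0.000459), with 1 Rnaseh2b-/- line assumed to vary like the Rnaseh2b+/+ lines. Only 1 of 1346 genes with at least 3 tested probes, Tfap2b, had a wider range of fold changes over its probes than Tpm2 (3.33), where the median range was 0.32. Markers of skeletal and cardiac muscle, whose fibres also express Tpm2, were high in Rnaseh2b-/- replicate 1, as were ILMN_2482209 and ILMN_2787172 but not ILMN_2487170 (0.09 below the Rnaseh2b+/+ mean). Of 26 such markers 24 were on the array and 19 above background on at least 1 array. Their summed normalized signal was 65501 and 2912 in Rnaseh2b-/- lines, against 2688, 2136, 1354 and 1357 in Rnaseh2b+/+ lines. In Rnaseh2b-/- replicate 1 the 19 markers lay 2.40 to 6.74 above the Rnaseh2b+/+ mean (median 4.99), and in Rnaseh2b-/- replicate 2 they lay -0.04 to 2.30 from it (median 0.47). Among these 19, Myl7, Tnnt3, Myod1, Ttn, Casq2 and Mybpc1 were not above background in any Rnaseh2b+/+ line. The filter kept them only through Rnaseh2b-/- lines, so their direction is not independent of it and their distances are only bounds. Of the 19, 14, with Myl7, Tnnt3 and Myod1 among them, were higher in Rnaseh2b-/- lines at an unadjusted P under 0.05 (7.99% of all genes), and 1 passed the threshold. That was Myl7, an atrial light chain, at least 2.89-fold higher (limma adjusted P = 0.00954, not passed without Rnaseh2b+/+ replicate 2, adjusted P = 0.0683). The muscle regulators Myod1 and Myog, both among the 19, lay 3.86 and 3.26 above the Rnaseh2b+/+ mean in Rnaseh2b-/- replicate 1. In Rnaseh2b-/- replicate 2 they lay 0.35 and -0.04 from that mean. Myod1 was not above background in any Rnaseh2b+/+ line, so that its distance is only a bound. The early muscle regulator Myf5, the heart regulator Nkx2-5 and the genes of mature muscle Myh6, Myh7 and Ckm were not above background in any line. Without Rnaseh2b-/- replicate 1 the fold change was 0.98 at ILMN_2482209 (adjusted P = 0.146) and 0.83 at ILMN_2787172 (adjusted P = 0.329). The part of muscle cells in the Tpm2 values was not tested.

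**Figure D3:**
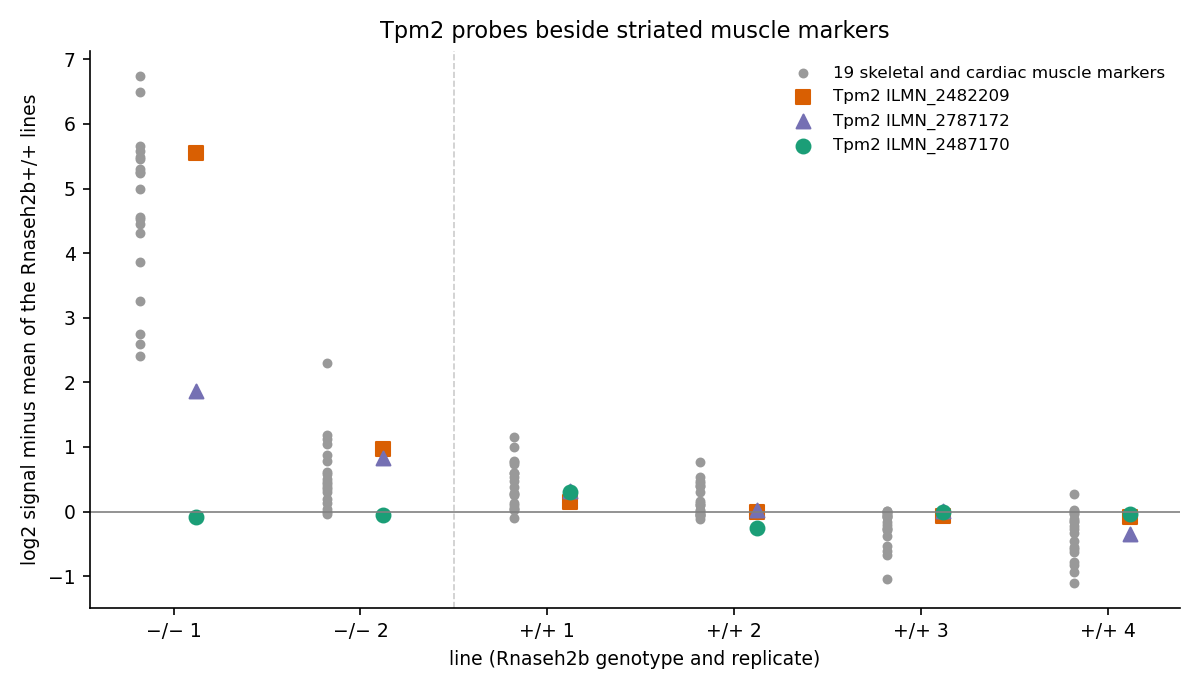
Log2 signal minus the mean of the Rnaseh2b+/+ lines (y axis) in each line (x axis, 2 Rnaseh2b-/- and 4 Rnaseh2b+/+) for the 3 Tpm2 probes (coloured symbols) and 19 skeletal and cardiac muscle markers (grey points). In Rnaseh2b-/- replicate 1 the markers lie 2.40 to 6.74 above 0, ILMN_2482209 lies at 5.55 and ILMN_2787172 at 1.87, whereas ILMN_2487170 lies at -0.09.

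The Acta2 probes were split in sign, but over a smaller range (0.91, with a wider range in 62 of the 1346 genes). The probe with the opposite sign, ILMN_2693895, had 15.01 and 14.96 in Rnaseh2b-/- lines, against 14.89, 14.85, 14.88 and 14.85 in Rnaseh2b+/+ lines. Both Rnaseh2b-/- lines were above all others, with a fold change of 0.12 (SE 0.13, limma adjusted P = 0.684). This probe was at the top of the intensity scale, ranked 1 and 4 among 45281 probes in Rnaseh2b-/- lines and 13, 19, 15 and 19 in Rnaseh2b+/+ lines. Its deposited intensity was 30167 and 30079 in Rnaseh2b-/- lines, against 28481, 28015, 34388 and 33027 in Rnaseh2b+/+ lines, so that the groups overlapped before normalization. At the other Acta2 probes the fold changes were -0.24 at ILMN_2710354, -0.35 at ILMN_2710353, -0.39 at ILMN_2923445 and -0.80 at ILMN_1237242. The last of these had 5.08 and 4.75 in Rnaseh2b-/- lines, against 5.78, 5.85, 5.86 and 5.35 in Rnaseh2b+/+ lines. It was above background in 3 of 4 Rnaseh2b+/+ lines and in neither Rnaseh2b-/- line, which bounds the signal as at least 1.11-fold lower in Rnaseh2b-/- lines (limma adjusted P = 0.136).

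**Figure D4:**
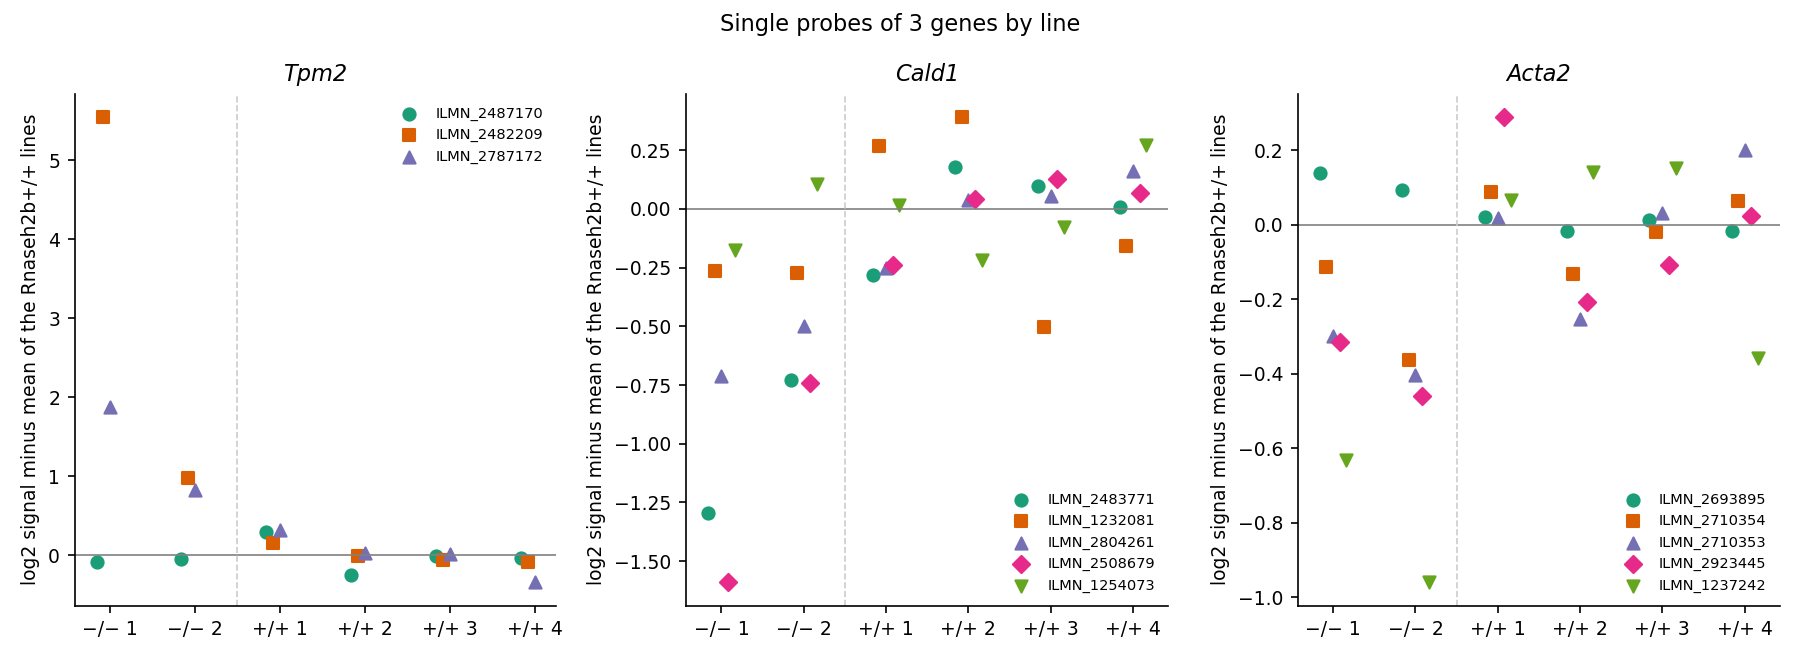
Log2 signal minus the mean of the Rnaseh2b+/+ lines (y axis, scaled per panel) at each tested probe of Tpm2, Cald1 and Acta2 in each line (x axis, 2 Rnaseh2b-/- and 4 Rnaseh2b+/+). In the Rnaseh2b-/- lines 1 Tpm2 probe stays within 0.10 of the Rnaseh2b+/+ mean, Cald1 probe ILMN_2508679 lies 1.59 and 0.74 below it, and Acta2 probe ILMN_2693895 lies above it.

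The 5 Cald1 probes had the same sign but not the same size. The 2 with the largest values came closest of all members' probes to the threshold. ILMN_2483771 had 10.497 and 11.06 in Rnaseh2b-/- lines, against 11.51, 11.97, 11.89 and 11.80 in Rnaseh2b+/+ lines (fold change -1.01, SE 0.21, limma adjusted P = 0.0966). ILMN_2508679 had 7.29 and 8.14 in Rnaseh2b-/- lines, against 8.65, 8.93, 9.01 and 8.95 in Rnaseh2b+/+ lines (fold change -1.17, SE 0.25, limma adjusted P = 0.0989). At both, the Rnaseh2b-/- lines lay below all Rnaseh2b+/+ lines, and both passed without Rnaseh2b-/- replicate 2 (-1.30, adjusted P = 0.0360, and -1.59, adjusted P = 0.0126). ILMN_2804261 had 8.33 and 8.54 in Rnaseh2b-/- lines, against 8.79, 9.08, 9.10 and 9.20 in Rnaseh2b+/+ lines (fold change -0.61, limma adjusted P = 0.164). The other two overlapped between the groups, with fold changes of -0.27 at ILMN_1232081 and -0.04 at ILMN_1254073. The fold change at ILMN_1254073 exceeded that at ILMN_2508679 by 1.13 (SE 0.23, unadjusted P = 0.00132, limma adjusted P = 0.212), and 33 of the 1346 genes had a wider range over their probes. The platform annotation ties 4 of these 5 probes to 3 different mRNA records of Cald1, a gene with a long smooth muscle and a shorter non-muscle form of the protein, but which form each probe reads was not analysed here. The 2 probes of Cnn2 had fold changes of -0.49 and -0.23, and the 2 of Tpm1 -0.52 and -0.39.

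None of the tested factors that drive these genes passed the threshold either, but several cofactors of SRF were barely measured. Mrtfb and Elk1 had no detected signal and were not tested. Mrtfa reached detection only in 1 Rnaseh2b+/+ line (mean log2 signal 5.19 in Rnaseh2b-/- and 5.01 in Rnaseh2b+/+ lines). Myocd reached it in 1 Rnaseh2b-/- line and 2 Rnaseh2b+/+ lines (means 5.41 and 5.39). Whether these cofactors changed could thus not be judged. Of 9 tested genes of SRF and its cofactors, 0 passed and 1 was lower at an unadjusted P under 0.05, against 9.13% of all genes. That was Srf, with 9.56 and 9.30 in Rnaseh2b-/- lines, against 9.78, 10.01, 10.09 and 10.04 in Rnaseh2b+/+ lines. Both Rnaseh2b-/- lines were below all others (fold change -0.55, SE 0.15, limma adjusted P = 0.162). The part of SRF in the members' values was not tested. Elk3, which competes with other cofactors for SRF, had a fold change of -0.30 (adjusted P = 0.296). Of 13 tested targets of SRF and its cofactors outside the contractile list, 0 passed. At an unadjusted P under 0.05, 3 were lower, against 9.13% of all genes. Of the 13, of which Fhl2 is also counted among the cofactors, 6 had fold changes above 0 and 7 below, with a median of -0.13. The secreted matricellular proteins Ccn1 and Ccn2 had the smallest P. Ccn1 had 10.01 and 9.79 in Rnaseh2b-/- lines, against 10.43, 10.54, 10.57 and 10.57 in Rnaseh2b+/+ lines (fold change -0.63, SE 0.13, limma adjusted P = 0.0935). Ccn2 had a fold change of -0.50 (SE 0.13, adjusted P = 0.133), and the Rnaseh2b-/- lines were again below all others.

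Among 17 tested myofibroblast and TGF-beta response genes, 1 was lower past the threshold, against 0.157% of all genes, and the median was -0.39. Before adjustment, 7 had a P under 0.05, of which 5 were lower in Rnaseh2b-/- lines and 2 higher, against 9.13% and 7.99% of all genes. The 2 higher genes, Fap (fold change 1.38, limma adjusted P = 0.105) and Tgfb2 (0.63, adjusted P = 0.235), had both Rnaseh2b-/- lines above all others. The gene past the threshold was Nox4, an oxidase induced by TGF-beta in myofibroblasts. It had 6.30 and 6.14 in Rnaseh2b-/- lines, against 7.37, 7.66, 7.99 and 7.58 in Rnaseh2b+/+ lines. The groups were more than 1 log2 unit apart (fold change -1.43, SE 0.19, limma adjusted P = 0.0400). The fold change kept its sign in all 16 other settings and passed in 9 of them, but not without Rnaseh2b-/- replicate 1 (adjusted P = 0.110) or without Rnaseh2b+/+ replicate 2, 3 or 4 (adjusted P = 0.143, 0.0916 and 0.144). Of 10 tested genes of the RhoA and ROCK pathway, which raises myosin phosphorylation, 0 passed. At an unadjusted P under 0.05, 1 was lower, against 9.13% of all genes. It was Rhob (fold change -0.46, limma adjusted P = 0.175). Rhoa itself was not above background in any line.

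The 16 tested further genes of the smooth muscle apparatus were split in sign, with 9 fold changes above 0 and 7 below. None passed, and their median was 0.04. Before adjustment, 5 had a P under 0.05, of which 3 were higher in Rnaseh2b-/- lines and 2 lower, against 7.99% and 9.13% of all genes. Mylk, the kinase that phosphorylates the myosin light chain, had 8.13 and 7.71 in Rnaseh2b-/- lines, against 7.49, 6.42, 6.72 and 6.30 in Rnaseh2b+/+ lines (fold change 1.19, SE 0.34, limma adjusted P = 0.166). Both Rnaseh2b-/- lines were above all others. Des (desmin, the intermediate filament of all muscle) had 12.09 and 8.78 in Rnaseh2b-/- lines, against 8.70, 7.41, 5.94 and 7.36 in Rnaseh2b+/+ lines (fold change 3.08, SE 1.0, limma adjusted P = 0.206). As with Tpm2, Rnaseh2b-/- replicate 1 stood far above the other lines, and so it did at Pdlim3, a muscle protein of the Z-disc, with 9.03 and 5.41 in Rnaseh2b-/- lines, against 4.80 to 5.43 in Rnaseh2b+/+ lines. Lmod1, an actin-filament nucleator of smooth muscle, had a fold change of -0.38 (adjusted P = 0.283).

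None of the 9 tested non-muscle paralogs had an unadjusted P under 0.05. Their log2 fold changes were 0.24 for Actb (beta actin), -0.02 for Tagln2, -0.05 for Myl6, 0.30 for Myl12a, 0.27 for Myl12b, 0.01 for Myh9, 0.11 for Myh10, 0.49 for Tpm3 and -0.21 for Tpm4. At Tpm3 Rnaseh2b-/- replicate 1 had 9.27 and Rnaseh2b-/- replicate 2 had 7.65, against 7.70 to 8.18 in Rnaseh2b+/+ lines. Of the pericyte and vascular smooth muscle markers, 4 of 8 on the array were tested, and Rgs5, Kcnj8, Abcc9 and Higd1b were not above background in any line. Summed normalized signal of the 4 was 620 and 544 in Rnaseh2b-/- lines, against 668 to 858 in Rnaseh2b+/+ lines. The proteoglycan Cspg4 had 5.88 and 5.58 in Rnaseh2b-/- lines, against 6.81, 6.60, 6.80 and 7.30 in Rnaseh2b+/+ lines (fold change -1.15, SE 0.22, limma adjusted P = 0.0776). Epithelial markers (7 tested) had a summed signal of 4083 and 1425 in Rnaseh2b-/- lines, against 276 to 538 in Rnaseh2b+/+ lines. In 5 of the 7 both Rnaseh2b-/- lines lay above all Rnaseh2b+/+ lines, against 12.5% of all genes. Cdh1 (6.21 and 6.61, against 5.24 to 6.37) and Cldn7 (5.35 and 5.83, against 5.37 to 5.82) overlapped between the groups. Epcam, Cldn6, Cldn4 and Esrp1 were not above background in any line. The tetraspanin Tspan8, the only epithelial marker to pass, had 10.04 and 8.61 in Rnaseh2b-/- lines, against 6.22, 5.57, 4.55 and 5.30 in Rnaseh2b+/+ lines (fold change 3.91, SE 0.52, limma adjusted P = 0.0400). It did not pass without Rnaseh2b-/- replicate 1 (adjusted P = 0.114) or without Rnaseh2b+/+ replicate 2, 3 or 4 (0.143, 0.0916 and 0.144). None of the tested endothelial (3), blood (2) and neural markers (2) passed, and the smallest P in each list belonged to Esam (fold change 1.88, limma adjusted P = 0.0835), Cd14 (0.53, adjusted P = 0.292) and Nes (1.62, adjusted P = 0.262). The other tested markers of these lists had fold changes below 0. At Flt1 (-2.13, adjusted P = 0.0893) both Rnaseh2b-/- lines were below all others. The rest were Tek (-1.12), Lyz2 (-0.83) and Map2 (-0.13). The summed endothelial signal was 393 and 279 in Rnaseh2b-/- lines, against 420 to 957 in Rnaseh2b+/+ lines. The part of these cell type markers in the members' values was not tested.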

How the data were processed

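RNA of 2 Rnaseh2b-/- and 4 Rnaseh2b+/+ lines, all p53-/-, was measured on 1-colour Illumina arrays. The authors deposited bead-summary intensity per probe with no background correction, a detection p-value per probe, and log2 values after neqc of limma. Here neqc (limma 3.58.1, R 4.3.3) was run on the intensity, with background from the detection p-values and an offset of 16. The result differed from the deposited log2 values by at most 0.109. Of 45281 probes, 34885 had 1 gene symbol, 18 had several and 10378 had none, and only the first kind was used. Probes detected (P under 0.01) on at least 1 array were kept (15805), and averaging gave 10160 genes. Linear models with moderated variances compared the groups by gene, by probe and by the log2 difference of probe pairs, adjusted by Benjamini-Hochberg over all tested, with 0.05 as the threshold. The models were tested on simulated data. Members and gene lists were chosen with earlier results of these data known. All members and probes are named, and from each other list up to 4 genes past the threshold or, with none past it, of smallest P, plus the tested paralogs. Tfap2b was named after its values were seen, as were Fn1, Col1a1, Col3a1, Myod1, Myog, Fap and Tgfb2, which that rule leaves out. Alternatives covered the filter, background, scaling, probe summary, variance model, replicate block and each line left out. The number of arrays limits precision.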

Additional observations from a re-analysis of the deposited data

Results flagged for a closer look

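One value was singled out by its distance from the rest of its group. At Acta2 probe ILMN_1237242, Rnaseh2b+/+ replicate 4 had a log2 signal of 5.35, below the 5.78 to 5.86 of the other Rnaseh2b+/+ lines, and the gap to its neighbour was 0.834 of the range of the 4 lines. This was 1 of 30 groups of Rnaseh2b+/+ values examined, where chance gives about 1 in 20.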

How the results depend on the processing

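Over all genes, the counts higher and lower (36 and 16) became 18 and 9 without the filter on dim probes and 55 and 36 with a trended, robust variance. The lower count was 27 with detection on at least 2 arrays and 25 with median scaling, under which the median of all genes was -0.16. Leaving out 1 line gave 0 to 293 higher and 1 to 112 lower. In limma 0 genes passed in either direction with the replicate number as a block (unadjusted P was under 0.05 for 448 higher and 461 lower). The numbers are shared labels only, since deviations of same-numbered lines correlated at 0.10 and 0.06. With the block, 1 member in place of 6 was lower before adjustment. Leaving out 1 line gave 2 to 5 lower and 1 to 2 higher members before adjustment, 0 to 1 higher and 0 lower members past the threshold, and 0 to 2 differing probe pairs, 1 of them with a probe not above background in any Rnaseh2b+/+ line. With the brightest probe of each gene in place of the mean, 0 members were higher before adjustment, and Acta2 (0.12) and Tpm2 (-0.069) changed sign. Actg2, with its only probe, was -0.18 with median scaling and -0.36 to 0.46 with 1 line left out (below 0 without Rnaseh2b-/- or Rnaseh2b+/+ replicate 2). Cald1 probe ILMN_1254073 was 0.064 with the block and -0.18 to 0.11 with 1 line left out, and Tpm2 probe ILMN_2487170 was -0.15 to 0.031. The cause was not tested. With the trended, robust variance Cald1 probes ILMN_2483771 and ILMN_2508679 passed (adjusted P = 0.0345 and 0.0480). Of the values of member genes 138 and of member probes 302 kept sign and side of the threshold.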
